A study of Mus musculus with 6 samples.

Results

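Pulmonary fibrosis was induced in mice with bleomycin (BLM), an anticancer agent that breaks DNA, and the lung cells without the lysosomal protein Lamp1 on their surface were compared with the same cells of sham-treated mice. The comparison rests on 1 Lamp1-depleted RNA library from BLM-treated lungs and 1 from sham-treated lungs. All genes with 10 or more reads in either library were members, after Gm26917 and Gm42418 were set aside, which left 20850 of the 49315 genes listed. All mice were C57BL/6, which the study's methods give as male C57BL/6J, and both groups were handled alike apart from the instillate. They received bleomycin sulfate or sterile saline by oropharyngeal instillation, and lungs were taken on day 21. The age of the mice was not given in the sources used here. Between 2 and 3 lungs of a group were pooled in a tube before cells were dissociated and sorted, so 1 library stands for a pool and differences between animals were not measured. Unsorted and Lamp1-enriched cells of both treatments gave 4 further libraries, which are used here only to show where the Lamp1-depleted cells differed.

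Lamp1 lines the membrane of lysosomes and late endosomes and reaches the surface mainly when lysosomes fuse with the plasma membrane, as happens when killer lymphocytes and granulocytes release their granules. Instilled bleomycin injures the alveolar epithelium, and the mouse lung passes through an influx of neutrophils and monocytes before fibroblasts deposit collagen. Lymphocytes, including the B and T cells that gather in the lung, follow during the weeks of scarring. Macrophages that derive from recruited monocytes take on a scar-associated program marked by Spp1, Trem2 and Gpnmb.

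The sorted fractions differed in their reads. Lamp1 mRNA stood at 132 CPM (reads scaled to library size) in BLM and 169 CPM in sham Lamp1-depleted cells, against 411 and 538 CPM in the Lamp1-enriched cells. Unsorted cells stood at 550 CPM in BLM, above the enriched cells, and at 344 CPM in sham. Cells were sorted on surface protein, so these mRNA levels do not measure how well the sort worked. Summed T cell markers were higher in depleted than in enriched cells by a log2 ratio of 4.18 in BLM and 3.80 in sham, and summed B cell markers by 4.02 and 4.21. Summed endothelial markers had log2 ratios of -3.86 and -3.09 between the same fractions. The Lamp1-depleted cells were therefore rich in lymphocytes in both treatments, with the defining genes Cd3e (63.0 and 134 CPM) and Cd79a (111 and 633 CPM) well above 0. They were not free of other cells, since Cdh5, the cadherin of endothelium, was read at 251 and 366 CPM.

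The BLM Lamp1-depleted library stood apart. Gm26917 took 38.4% of its reads, against 0.884% to 7.10% in the other 5 libraries, and 18276802 reads remained outside Gm26917 and Gm42418, against 38097084 in sham. Mitochondrially encoded genes took 13.3% of those remaining reads in BLM and 5.04% in sham. The RNA genes Rmrp and Rpph1, which were named after their values were seen, together took 5.38% and 1.01%. GC content also moved with the ratio: across 12315 protein-coding genes with at least 50 reads, the median log2 ratio went from -0.83 in the lowest of 10 bins of GC content to 0.46 in the highest. For this reason the medians of the lists below are also given after adjustment for GC content and exon length (adjusted). The part of GC content, of these abundant RNAs and of the smaller library in the results was not tested.

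At a 4-fold difference (a log2 ratio of at least 2 in size), 1172 genes (5.62%) were higher and 1546 genes (7.41%) lower in BLM. After adjustment for GC content and length, 1206 of 20775 genes (5.81%) were higher and 1208 (5.81%) lower. Protein-coding genes had the opposite balance, with 752 of 14609 higher (5.15%) and 443 lower (3.03%), and with both libraries thinned to the same total 1185 genes were higher and 1007 lower. Of the called genes that could be adjusted, 1018 of 1166 higher and 1159 of 1536 lower genes were still past 4-fold. That 0 changed sign carries no weight, since the adjustment moves a ratio by less than the 4-fold limit. The median over all genes was -0.16, with 11782 of 20850 genes and 7763 of 14609 protein-coding genes below 0. The counts of the lists below are to be read beside these counts and the shares above. Many of the calls rest on few reads: 604 of the higher and 495 of the lower genes had under 20 reads in their higher library. With 1 library a side there is no replicate check and no p-value, and each interval below is a 95% Clopper-Pearson counting interval of a log2 ratio. In bulk RNA, fewer cells of a type and less RNA per cell cannot be told apart.

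**Figure D1:**
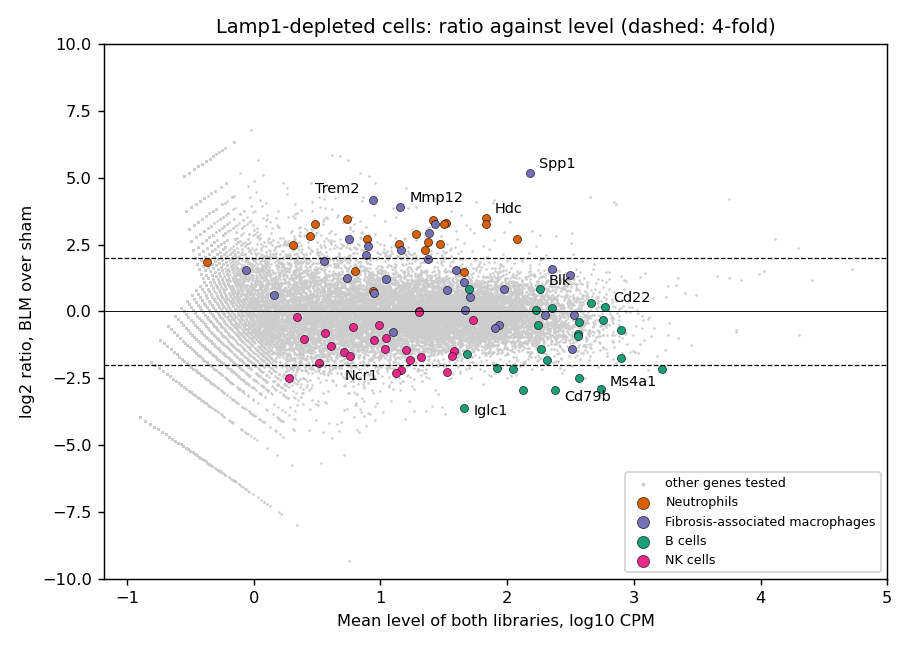
Each point is 1 gene tested in Lamp1-depleted cells, with the mean level of both libraries (log10 CPM) across and the log2 ratio of BLM over sham upward. Neutrophil genes (orange) lie between 0.76 and 3.47, NK cell genes (pink) between -2.48 and 0.02, B cell genes (green) between -3.61 and 0.83, and scar-associated macrophage genes (purple) between -1.41 and 5.17; the dashed lines mark 4-fold.

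Neutrophil genes were higher as a list. All 20 members tested were above 0, 16 of the 20 were past 4-fold where 5.62% of all genes and 5.15% of protein-coding genes were, and the median was 2.71. After adjustment the median was 3.07, with 17 past 4-fold. The summed level of the list was 931 CPM in BLM and 143 CPM in sham. Hdc, the histidine decarboxylase that makes histamine, had 2201 reads (124 CPM) in BLM and 440 reads (11.1 CPM) in sham, a log2 ratio of 3.47 (interval 3.33 to 3.63). S100a8, one chain of the calcium-binding dimer calprotectin, was at 59.5 and 6.00 CPM (log2 ratio 3.30), and its partner S100a9 at 23.8 and 4.18 CPM (2.51). Both chains were more than 4-fold higher. Retnlg, a resistin-like protein of neutrophils, was at 57.4 and 5.90 CPM (3.28), and Lcn2, the iron-withholding lipocalin, at 10.1 and 0.912 CPM (3.44). G0s2, an inhibitor of the lipase Atgl, had a log2 ratio of 3.41, and the chemokine receptor Cxcr2 one of 2.89. The smallest log2 ratios were those of Trem1, an activating receptor, at 1.46 and the surface antigen Cd177 at 0.76. In the other fractions the median of the same genes was 1.29 in enriched and 1.11 in unsorted cells.

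Neutrophils share genes with other granulocytes. Among eosinophil markers, 6 of 10 reached 10 reads, with a median of 1.71 (2.23 adjusted), 5 above 0 and 3 past 4-fold, of which S100a9 is also in the neutrophil list. Siglecf, a sialic acid receptor of eosinophils and alveolar macrophages, was at 4.17 and 3.60 CPM (log2 ratio 0.21, interval -0.21 to 0.63), Ccr3, the eotaxin receptor, at 0.733 and 0.304 CPM on 13 and 12 reads (1.22, interval 0.02 to 2.53), and Il5ra, the interleukin-5 receptor chain that B-1 cells also carry, at 11.4 and 45.3 CPM (-1.98). Cd300lf, an inhibitory receptor of myeloid cells, was at 67.4 and 5.04 CPM (3.74). Of 12 basophil and mast cell genes, 2 were higher and 2 lower at 4-fold, with a median of -0.47 (-0.33 adjusted). The higher genes were Hdc, which is also in the neutrophil list, and Cyp11a1 on 58 and 23 reads (2.45). The lower genes, the mast cell and basophil proteases Cpa3 and Mcpt8, had 22 and 13 reads in sham and 0 in BLM. Cpa3 was at least 3.30-fold lower in BLM with its 0 set to 3 reads.

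Scar-associated macrophage genes were higher in part. Of the 30 genes of the list, 24 were above 0 and 9 past 4-fold, with a median of 1.30 (1.49 adjusted). Spp1, which encodes the matrix phosphoprotein osteopontin, had the largest ratio of the list, with 5246 reads (296 CPM) in BLM and 323 reads (8.18 CPM) in sham, a log2 ratio of 5.17 (5.01 to 5.34). Trem2, a lipid receptor of tissue macrophages, was at 16.6 and 0.912 CPM (4.16), and Mmp12, the macrophage elastase, at 27.0 and 1.80 CPM (3.90). Gpnmb, a glycoprotein of lysosome-related organelles, was at 48.6 and 5.09 CPM (3.25), and the tetraspanin Cd63 at 43.2 and 5.60 CPM (2.94). The lysosomal proteases of the same list moved less: Ctsd and Ctsl had log2 ratios of 1.58 and 1.54, Ctsb -0.12 and Ctss -0.13. The scavenger receptor Cd36, which endothelium also carries, was at 179 and 477 CPM (-1.41). The median of these genes was larger in unsorted cells, at 3.23, and 1.54 in enriched cells.

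**Figure D2:**
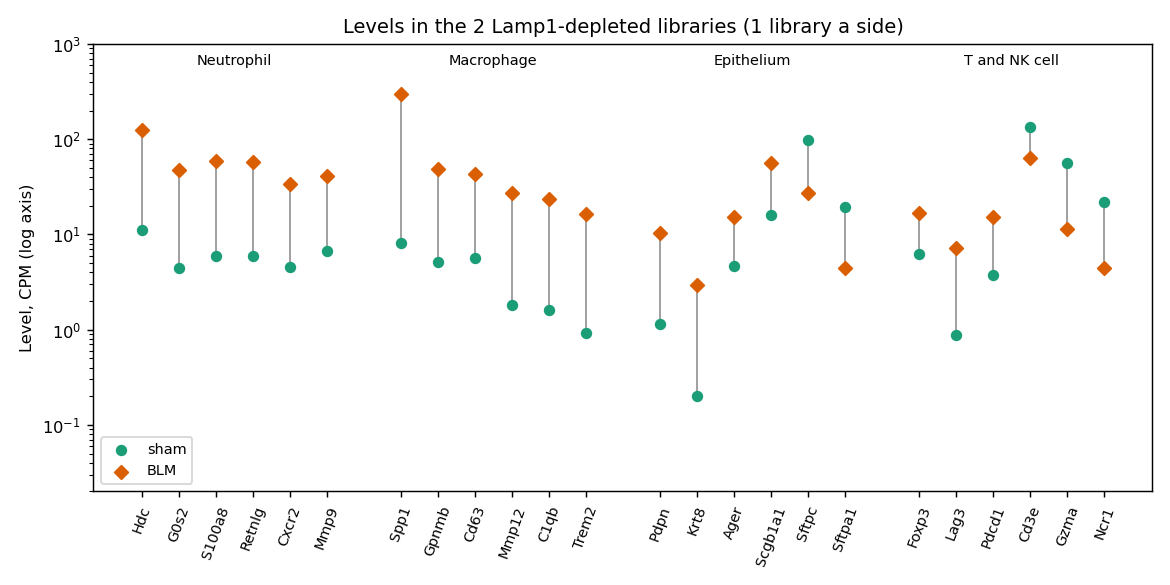
Levels of 24 genes in the 2 Lamp1-depleted libraries (CPM, log axis; diamonds BLM, circles sham, 1 library each), to be compared within a gene and not between genes. Spp1 went from 8.18 to 296 CPM and Hdc from 11.1 to 124 CPM, while Sftpc, Gzma and Ncr1 stood lower in BLM.

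Other macrophage genes split. Among 20 interstitial macrophage genes, 4 were higher and 2 lower at 4-fold, with a median of 0.40 (0.43 adjusted). The 3 chains of C1q, the subunit that starts the classical complement cascade and that tissue macrophages secrete, were together higher: C1qb at 23.8 and 1.60 CPM (log2 ratio 3.88, interval 3.51 to 4.30), C1qc at 8.40 and 0.709 CPM (3.53) and C1qa at 13.8 and 1.52 CPM (3.17). Cd14, the co-receptor for bacterial lipopolysaccharide that neutrophils and monocytes also carry, was at 208 and 33.3 CPM (2.65). Selenop, the selenium carrier, and Lyve1, the hyaluronan receptor of lymphatic vessels and of some macrophages, were lower, at -2.18 and -2.33. Of 23 alveolar macrophage genes, 4 were higher and 2 lower, with a median of 0.60 (0.81 adjusted). Ctsk, a collagen-degrading cathepsin, had 372 reads in BLM and 114 in sham (2.85), Fabp5, a fatty acid carrier, was at 13.5 and 2.46 CPM (2.45), and Atp6v0d2, a subunit of the proton pump, at 51.7 and 12.9 CPM (2.00). The lower genes rested on few reads, 6 and 70 for Krt79 (-2.33) and 0 and 15 for Fabp1, which was named after its values were seen. The scavenger receptor Marco, a defining gene of alveolar macrophages, was the other higher gene, on 13 and 6 reads (2.15, interval 0.77 to 3.95).

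Since the C1q chains moved together, the 250 bases before their start sites are shown for the 2 chains found in the RefSeq promoter table (GRCm38.p6), with matches to GAGGAA, a core bound by ETS-family factors such as PU.1, in capitals on either strand (TTCCTC is the reverse complement). The C1qb window is chr4:136886201-136886450 and the C1qc window chr4:136892915-136893164, both on the minus strand.
C1qb: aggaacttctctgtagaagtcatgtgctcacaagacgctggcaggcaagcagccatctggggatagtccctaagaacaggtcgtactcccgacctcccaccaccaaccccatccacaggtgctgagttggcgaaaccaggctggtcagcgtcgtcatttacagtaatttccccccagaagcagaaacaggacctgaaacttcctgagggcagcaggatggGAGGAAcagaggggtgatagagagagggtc
C1qc: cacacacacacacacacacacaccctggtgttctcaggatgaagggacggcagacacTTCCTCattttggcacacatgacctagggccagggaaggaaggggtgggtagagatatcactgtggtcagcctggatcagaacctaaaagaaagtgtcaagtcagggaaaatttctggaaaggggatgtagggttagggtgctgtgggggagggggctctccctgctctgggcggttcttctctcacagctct
Each window held 1 match. Of all 32841 windows of this length in the table, 23.3% held the same letters, so a match is common and is given as a description only.

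Monocyte and antigen-presentation genes did not follow the neutrophil genes. Among 16 classical monocyte genes 2 were higher at 4-fold, with a median of 0.35 (0.85 adjusted): coagulation factor F10 at 2.42 and haptoglobin Hp at 2.00. Ly6c2, the surface antigen that defines classical monocytes, was at 22.7 and 85.1 CPM (-1.91), and the chemokine receptor Ccr2 at 77.2 and 133 CPM (-0.79). Chil3 and F13a1, also defining genes of the list, went the other way, at 168 and 87.8 CPM (0.94) and at 57.3 and 31.2 CPM (0.87). In all, 9 of the 16 were above 0 and 7 below. Of 15 nonclassical monocyte genes, 11 were below 0 and 2 past 4-fold, Cd300e (-2.45) and Adgre4 (-2.41), with a median of -0.83 (-0.80 adjusted). The fractalkine receptor Cx3cr1 was at 39.6 and 70.2 CPM (-0.83). MHC class II genes, which present antigen to helper T cells, had a median of -0.78 (-0.62 adjusted) with 10 of 12 below 0 and 0 past 4-fold. Cd74, the invariant chain, was at 1662 and 3998 CPM (-1.27) and the class II chain H2-Aa at 734 and 2321 CPM (-1.66), while H2-DMb1 was at 120 and 64.9 CPM (0.89). B cells as well as dendritic cells and macrophages carry these genes.

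Dendritic cell lists had medians of -0.16 for type 1 (14 genes, -0.28 adjusted), 0.14 for type 2 (13 genes, 0.31 adjusted) and 0.76 for migratory cells (18 genes, 0.53 adjusted). Ccl17, a ligand that draws Ccr4-bearing T cells, had 72 reads in BLM and 12 in sham, a log2 ratio of 3.66 (2.85 to 4.76). Fscn1, the actin-bundling fascin of mature dendritic cells, was at 18.8 and 3.93 CPM (2.25), and Ccl22, the companion of Ccl17, at 9.92 and 3.60 CPM (1.46). Ccr7, the receptor that guides mature dendritic cells but also naive lymphocytes to lymph nodes, was at 200 and 589 CPM (-1.56). The type 1 genes Xcr1 and Clec9a were at -0.70 and -0.84, and Flt3, the receptor for the growth factor of dendritic cells, at 1.67.

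**Figure D3:**
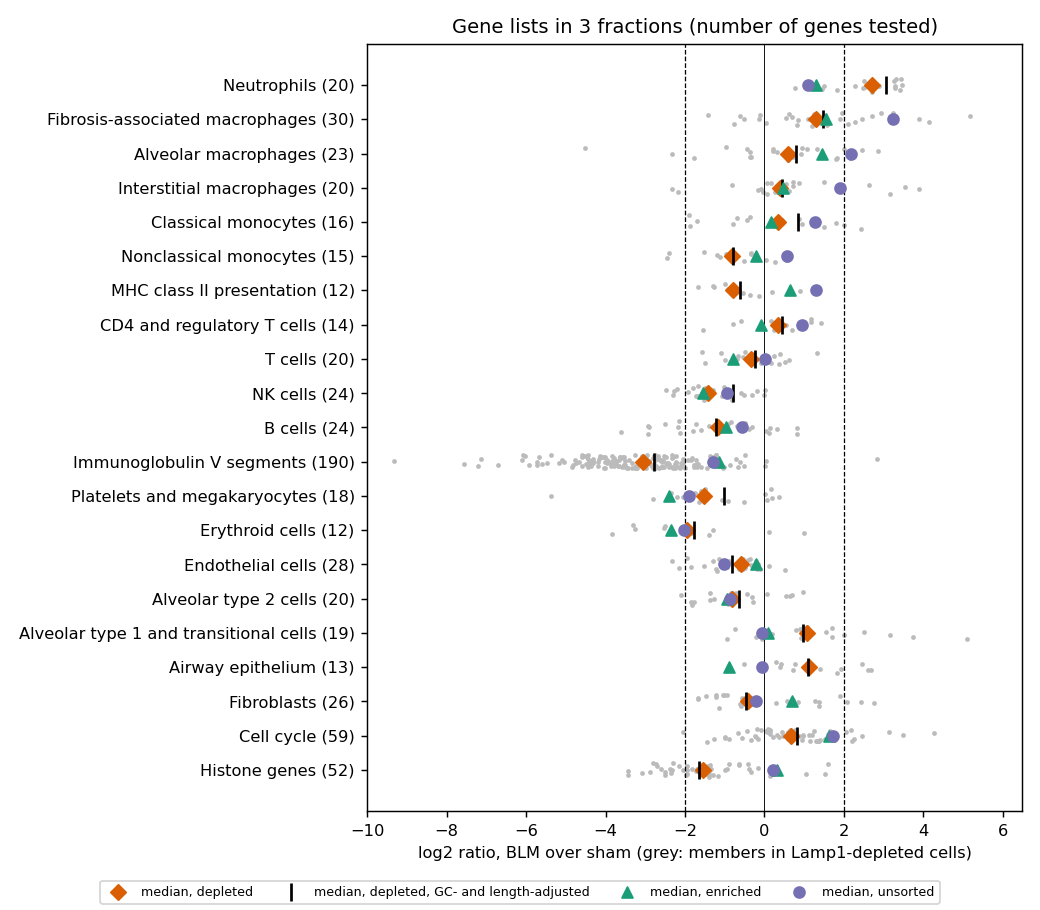
Log2 ratios of BLM over sham for 21 gene lists, with the members in Lamp1-depleted cells as grey points and medians as symbols for depleted (diamond), adjusted depleted (bar), enriched (triangle) and unsorted cells (circle); dashed lines mark 4-fold. Neutrophil genes had a median of 2.71 in depleted cells against 1.29 and 1.11, and MHC class II genes one of -0.78 against 0.65 and 1.30.

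B cell genes were lower in part, and the list split into 2 ends. Of 24 members, 18 were below 0 and 8 past 4-fold, where 7.41% of all genes and 3.03% of protein-coding genes were. The median was -1.16 (-1.22 adjusted, with 5 past 4-fold). The signalling chains of the B cell receptor, Cd79a and Cd79b, were at 111 and 633 CPM (-2.51, interval -2.57 to -2.44) and at 55.3 and 424 CPM (-2.94). Ms4a1, which encodes CD20, was at 128 and 970 CPM (-2.92), and Ly6d, an early B lineage antigen, at 31.2 and 238 CPM (-2.93). These 4 genes were each more than 4-fold lower. At the other end Cd22, an inhibitory lectin of B cells, was at 619 and 557 CPM (0.15), the kinase Blk at 232 and 130 CPM (0.83) and Cd72 at 64.5 and 36.2 CPM (0.83). The list as a whole ran from -3.61 for the light chain gene Iglc1 to 0.83 for Blk. Its genes are not all of B cells alone, since Blk is also in the gamma delta T cell list and Ly6d in the plasmacytoid dendritic cell list. After adjustment Cd79b was at -2.95, Ms4a1 at -2.27 and Blk at 0.63, so that the ends of the list stayed apart. Across the 24 genes the rank correlation of the ratio with exon length was 0.65 and with GC content 0.10, against 0.07 and 0.46 across all 12315 protein-coding genes with at least 50 reads. All these values come from the same 2 libraries and carry no test.

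Immunoglobulin genes split by class. In the plasma cell list Jchain, which links IgA and IgM into polymers, was at 18.0 and 3.90 CPM (2.20, interval 1.92 to 2.49), the IgG chain Ighg2c at 6.14 and 0.988 CPM (2.62) and Ighg3 at 3.21 and 1.11 CPM (1.51). The constant genes of IgM and IgD, Ighm and Ighd, which were named after their values were seen, were at 611 and 2700 CPM (-2.14) and at 365 and 1208 CPM (-1.73). Igha, Ighg2b and Ighg1, also named after the fact, had log2 ratios of 1.19, 0.80 and 0.26. The general genes of secretory B cells did not share this order: Xbp1 was at -0.22, Prdm1 at -0.33, and Mzb1 and Pou2af1, which resting B cells also use, were at -2.16 and -1.78. Over all 21 plasma cell genes tested the median was -0.25 (-0.16 adjusted), with 2 higher and 2 lower.

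The variable segments, a group formed after the values were seen, were lower nearly throughout. Of 190 immunoglobulin V segments, 187 were below 0 and 157 past 4-fold, with a median of -3.05 (-2.77 adjusted; -2.76 with genes at 0 reads set to their bound). The 93 Igkv segments of the kappa light chain summed to 1919 reads in BLM and 39113 in sham, a log2 ratio of summed levels of -3.20. The 92 Ighv heavy chain segments summed to 921 and 10337 reads (-2.33), and the 3 Iglv segments to 452 and 5145 reads (-2.35). In enriched cells the same sums had log2 ratios of -1.03, -0.46 and -0.72. The 1 segment past 4-fold in the other direction, Ighv2-4, had 18 and 5 reads (2.84). These segments are short and alike, so reads may be split between neighbours.

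**Figure D4:**
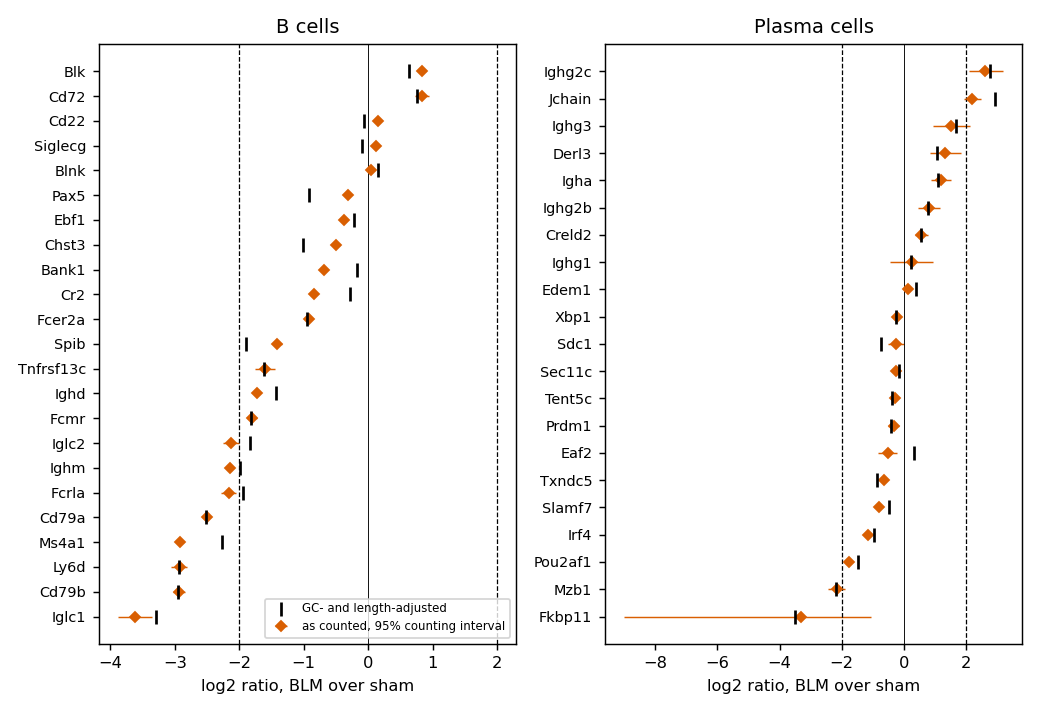
Log2 ratios of BLM over sham in Lamp1-depleted cells for 23 of the 24 B cell genes and the 21 plasma cell genes, as counted (diamonds with 95% counting intervals) and after adjustment for GC content and exon length (bars). The B cell genes run from -3.61 for Iglc1 to 0.83 for Blk, and the adjusted values keep Cd79b at -2.95 and Blk at 0.63.

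T cell genes lay around the median of all genes, and the list held no 4-fold difference. Of 20 members, 8 were above and 12 below 0, with a median of -0.34 (-0.24 adjusted). Lat, an adaptor of the T cell receptor, was at 105 and 42.0 CPM (1.33) and the kinase Lck at 191 and 123 CPM (0.63). The CD3 chain Cd3e was at -1.09 and the co-stimulatory receptor Cd28 at 45.3 and 135 CPM (-1.57). Among 14 CD4 and regulatory T cell genes the median was 0.33 (0.43 adjusted). Of these, 10 were above 0 and 4 below, and 0 were past 4-fold. Foxp3, the transcription factor of regulatory T cells, had 297 reads (16.7 CPM) and 247 reads (6.26 CPM), a log2 ratio of 1.42 (1.17 to 1.67). After adjustment it was at 0.89. Ctla4 was at 0.55 and Il2ra, also a defining gene of the list, at -0.08 (-0.26 to 0.11). Cd4 itself was at 27.7 and 47.5 CPM (-0.78), Icos at -0.59 and Cd40lg at -1.56. The activation list had a median of 0.18 (0.20 adjusted), with 3 of 18 higher. The inhibitory receptors Lag3 and Pdcd1 were more than 4-fold higher, Lag3 at 7.21 and 0.886 CPM (interval of the log2 ratio 2.48 to 3.61) and Pdcd1 at 15.3 and 3.75 CPM (2.02). Il21, the third, had 17 and 8 reads (2.15) and was named after its values were seen. Ifng, the interferon of T and NK cells, was at 2.71 and 6.26 CPM (-1.20), the lung-homing receptor Cxcr6 at 13.9 and 48.4 CPM (-1.80), and Cd69 at 101 and 224 CPM (-1.15).

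NK cell genes lay below 0 in 23 of 24 cases, with 4 past 4-fold and a median of -1.41. After adjustment the median was -0.79, and 0 genes stayed past 4-fold. Ncr1, the activating receptor NKp46, was at 4.45 and 21.9 CPM (-2.30, interval -2.65 to -1.97) and the protease granzyme A, Gzma, at 11.5 and 55.8 CPM (-2.28). Klrc2, an activating lectin receptor, was at 5.19 and 24.0 CPM (-2.21), and the serpin Serpinb9b had 10 and 127 reads (-2.48). Perforin, Prf1, was at 17.6 and 56.0 CPM (-1.67) and Gzmb at 8.57 and 23.3 CPM (-1.44). The transcription factors of the lineage stood elsewhere, with Eomes at a log2 ratio of -0.01 and Tbx21 at 0.02. The Klra receptors are near-identical copies, so their single values are uncertain. The NK list was also below 0 in enriched (median -1.55) and unsorted cells (-0.94).

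Among cytokines, 6 of 42 were higher and 1 lower at 4-fold, with a median of 0.36 (0.53 adjusted). In the interleukin-1 family Il1b was at 542 and 121 CPM (2.16, interval 2.11 to 2.21), the receptor antagonist Il1rn at 70.5 and 8.71 CPM (3.01) and Il1a at 12.8 and 4.99 CPM (1.36). Osm, oncostatin M, was at 66.8 and 14.7 CPM (2.19), and Tnfsf9, the ligand of 4-1BB, at 26.0 and 6.03 CPM (2.10). Tgfb1, the main fibrogenic factor, was at 228 and 303 CPM (-0.41), Il6 at 4.17 and 5.24 CPM (-0.33) and Il17a at 50 and 43 reads (1.36). Of 27 chemokine ligands, 5 were higher and 2 lower, with a median of 0.43 (0.73 adjusted). Cxcl2, a neutrophil attractant that acts through Cxcr2, was at 124 and 12.8 CPM (3.27). The T and NK cell ligand Ccl5 was at 10.1 and 24.9 CPM (-1.30), and Cx3cl1, the fractalkine of endothelium, at 3.83 and 16.3 CPM (-2.08). The 23 chemokine receptors had a median of -0.33 (-0.04 adjusted), with 2 higher and 1 lower at 4-fold (4 and 0 adjusted). Cxcr5, the follicle-homing receptor of B cells, was at 161 and 520 CPM (-1.69).

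The medians of the epithelial lists went apart by cell type, and members within a list differed. Of 19 genes of alveolar type 1 and transitional cells, 15 were above 0 and 5 higher at 4-fold, with a median of 1.07 (0.97 adjusted) against 0.08 in enriched and -0.05 in unsorted cells. The summed level of the list was 568 CPM in BLM and 606 CPM in sham. Its members Emp2 and Clic5 were at 114 and 217 CPM (-0.93) and at 119 and 200 CPM (-0.75), and Hopx at 21.9 and 25.5 CPM (-0.22). Pdpn, podoplanin, was at 10.4 and 1.14 CPM (3.17) and Krt8, the keratin of the transitional state, had 52 and 8 reads (3.74, interval 2.77 to 5.14). Ager, the receptor abundant on type 1 cells, was at 15.4 and 4.71 CPM (1.70). Cldn4, a tight junction claudin named after its values were seen, had 41 and 2 reads, a log2 ratio of 5.09 with a counting interval of 3.57 to 8.60. Of 13 airway genes, 12 were above 0 and 3 past 4-fold, with a median of 1.12 (1.09 adjusted): Scgb1a1, the secretoglobin of club cells, was at 56.6 and 15.9 CPM (1.83). Alveolar type 2 genes had a median of -0.82 (-0.64 adjusted) with 15 of 20 below 0. The surfactant proteins Sftpc and Sftpa1 were at 27.2 and 98.4 CPM (-1.85) and at 4.45 and 19.2 CPM (-2.11). The surfactant proteins Sftpb and Sftpd did not share this size, at -0.31 and, on 44 and 67 reads, at 0.54. Lyz2 was at 0.98. The general epithelial marker Epcam was at 3.10 and 4.46 CPM (-0.52).

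Endothelial genes had a median of -0.59 (-0.82 adjusted), with 26 of 28 below 0 and 2 lower at 4-fold (7.14%). Of all genes 7.41% were lower at 4-fold, and of protein-coding genes 3.03%. Ednrb, an endothelin receptor, was at 17.3 and 76.8 CPM (-2.15) and Calcrl, the receptor for adrenomedullin, at 299 and 1147 CPM (-1.94), while Pecam1 was at 405 and 462 CPM (-0.19) and Vwf at 194 and 136 CPM (0.51). Fibroblast genes had a median of -0.41, with 3 of 26 higher: Col1a1, a chain of type I collagen, had 1925 and 790 reads (2.44, interval 2.32 to 2.56), Pi16, of adventitial fibroblasts, was at 22.7 and 3.34 CPM (2.76), and Eln, elastin, at 58.7 and 13.8 CPM (2.08). After adjustment 1 of the 26 was higher and 1 lower, with Col1a1 at 1.70. Inmt, a methyltransferase, and Dcn, the matrix proteoglycan decorin, were at -1.68 and -1.22. In the activated fibroblast list 14 of 22 were above and 8 below 0, with a median of 0.91 (0.67 adjusted). The 5 higher at 4-fold included Spp1, given above with the macrophage genes, and Tnc, tenascin C, with 108 and 42 reads (log2 interval 1.99 to 3.07), while Acta2, the actin of myofibroblasts, was at 0.95, Postn, the matrix protein periostin, at -0.41, and the collagen Col12a1 at -1.28. Platelet genes had a median of -1.53 (-1.02 adjusted), with 5 of 18 lower and Ppbp at -2.81. Erythroid genes had a median of -1.94 (-1.77 adjusted), with 6 of 12 lower and Hbb-bs at -2.49. The copies of alpha and beta globin share reads and cannot be fully separated.

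Proliferation genes were higher in part. Of 59 cell cycle genes, 44 were above 0, 8 higher and 1 lower at 4-fold, with a median of 0.67 (0.81 adjusted, with 11 higher). The summed level of the list was not higher, at 1069 CPM in BLM and 1171 CPM in sham. Its median was larger in the other fractions, at 1.63 in enriched and 1.72 in unsorted cells. Mki67, the proliferation antigen Ki-67, was at 51.3 and 10.8 CPM (2.25, interval 2.08 to 2.42), and Clspn, a mediator of the replication checkpoint, at 13.9 and 0.709 CPM (4.26). Top2a, the topoisomerase of dividing cells, was at 17.8 and 10.5 CPM (0.76). The replication genes Pcna and Mcm4 were at -1.45 and -0.99, and Ccne2 at 2.42 and 10.1 CPM (-2.04). Histone genes, grouped after their values were seen, stood on the other side, with 47 of 52 below 0, 16 lower at 4-fold and a median of -1.56 (-1.64 adjusted) against 0.31 in enriched and 0.21 in unsorted cells. Hist1h2bf had 28 and 675 reads (-3.42). The labels give polyA RNA, and most histone mRNAs have no poly(A) tail. Rn7sk, an RNA that also lacks one, was read all the same. It took 1.37% of the reads outside Gm26917 and Gm42418 in BLM and 2.73% in sham. How far such a selection bore on the histone values was not tested, and the histone copies share sequence. Among 28 cell cycle inhibitors and p53 targets 17 were above and 11 below 0, with a median of 0.60 (0.33 adjusted). Their summed level was 2147 CPM in BLM and 2577 CPM in sham. The stress cytokine Gdf15 was at 122 and 23 reads (3.52) and Cdkn1a, which encodes p21, at 78.2 and 29.1 CPM (1.43). Trp53inp1 was at 113 and 354 CPM (-1.65) and Ccng1 at 59.7 and 158 CPM (-1.40).

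Ribosomal protein genes, also grouped after their values were seen, lay below 0 in 78 of 81 cases, with 3 past 4-fold and a median of -1.10 (-0.98 adjusted), against -0.17 in enriched and -0.55 in unsorted cells. The 13 mitochondrially encoded genes were all above 0, from 0.70 to 1.60, with a median of 1.32 and 0 past 4-fold. After adjustment their median was 2.06 with 9 past 4-fold. These 9 calls come from the adjustment, since as counted 0 were past 4-fold. Their median GC content of 37.1% lies in the lowest GC bin, where protein-coding genes had a median of -0.83. The mitochondrially encoded genes share reads with nuclear copies. B2m, the light chain of MHC class I, was at 470 and 2128 CPM (-2.18). The pan-leukocyte genes had a median of -0.89 (-0.63 adjusted), with 11 of 12 below 0 and 2 lower, Cd52 (-2.30) and Cd53 (-2.09), while Ptprc, which encodes CD45, was at 1509 and 2994 CPM (-0.99). Lysosomal enzymes as a list stood near the median of all genes, at -0.12 over 40 genes (-0.21 adjusted), as did interferon-stimulated genes, at -0.24 over 50 (-0.03 adjusted) with 2 higher (Oas2 at 25.6 and 5.85 CPM, 2.13). Lamp1 itself had 2344 and 6664 reads, a log2 ratio of -0.35 (-0.42 to -0.29), and Lamp2 was at -0.45.

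The heat shock genes Hspa1a and Hspa1b, which encode the inducible chaperone Hsp70, were the only 2 of 41 immediate early and heat shock genes past 4-fold. Hspa1b was at 281 and 34.7 CPM (3.02, interval 2.93 to 3.11) and Hspa1a at 168 and 21.3 CPM (2.98). After adjustment they were at 2.39 and 2.36. In the enriched fraction the log2 ratios were 0.66 and 0.63, and in unsorted cells -0.38 and -0.45. Hspa8, the constitutive relative of Hsp70, was at 433 and 792 CPM (-0.87), and the early genes Fos and Jun were at 1.16 and 0.12. The 250 bases before both start sites are printed to show how alike this gene pair is, with the match to the heat shock element GAANNTTC (its own reverse complement) in capitals. Hspa1a is taken from chr17:34972157-34972406 and Hspa1b from chr17:34959239-34959488 (RefSeq, GRCm38.p6, both minus strand).
Hspa1a: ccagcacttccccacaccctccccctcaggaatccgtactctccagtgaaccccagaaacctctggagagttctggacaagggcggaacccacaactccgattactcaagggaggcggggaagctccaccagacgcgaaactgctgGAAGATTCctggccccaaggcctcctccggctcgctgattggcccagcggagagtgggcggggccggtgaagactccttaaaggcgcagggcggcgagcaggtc
Hspa1b: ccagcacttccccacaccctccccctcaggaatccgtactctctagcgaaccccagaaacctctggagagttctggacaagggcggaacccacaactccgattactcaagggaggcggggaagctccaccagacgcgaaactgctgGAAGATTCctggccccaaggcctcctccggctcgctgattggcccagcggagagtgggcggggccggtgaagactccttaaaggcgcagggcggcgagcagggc
The windows differed at 3 of 250 bases, and each held 1 match that began 104 bases before the start. The same letters occurred in 6.70% of all 32841 windows. Because the transcribed parts are nearly identical too, reads may be split between both genes, and they are best read as 1 value.

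The 15 protein-coding genes with the largest ratios, at 100 reads or more, included 8 predicted genes of repeat-like sequence (Gm10715, Gm10717, Gm10718, Gm10719, Gm10800, Gm10801, Gm17535 and Gm21738), with log2 ratios of 4.10 to 5.17. Gm10800, at chr2:98666547-98667301, had 190710 reads in BLM and 23166 in sham (4.20), and a log2 ratio of 0.61 in enriched cells. In unsorted cells it had 73388 and 260186 reads, with sham the higher library. Their near-identical copies make each value uncertain. The others were Spp1, Trem2 and Clspn above, Asprv1, a retroviral-like aspartic protease (195 and 8 reads, 5.64), Adam11, Kif1a, a kinesin of vesicle transport (121 and 14 reads, 4.20), and the laminin chain Lama1 (707 and 89 reads, 4.13). The group thus mixed repeats, macrophage genes, the cell cycle gene Clspn and genes of no list. Spp1 is in the activated fibroblast list as well. Asprv1 had log2 ratios of 0.50 in enriched and 0.61 in unsorted cells, and Lama1 of 3.98 and 3.55.

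Among the 15 lowest, Rag1, the recombinase that assembles antigen receptor genes in immature lymphocytes, had 10 reads in BLM and 518 in sham, a log2 ratio of -4.50 (-5.61 to -3.65). It had 1 and 48 reads in enriched and 0 and 24 in unsorted cells, so that BLM was the lower library in all 3 fractions. Cyp1a1, the monooxygenase induced through the aryl hydrocarbon receptor, had 3 and 156 reads (-4.41, interval -6.84 to -2.97) and was also lower in enriched (-5.20) and unsorted cells (-3.46). Hhip, the hedgehog-interacting protein, had 13 and 584 reads (-4.30), Lrat, which esterifies retinol, 7 and 293 reads (-4.17), and Slc4a1, the anion exchanger of red cells, 3 and 105 reads (-3.84, interval -6.28 to -2.39). Gm10226 had 0 and 125 reads and was at least 18.7-fold lower with its 0 set to 3 reads. Gm14410, Ccdc152, Gm11808, Gjb2, Insl6, Slc5a12, Zfp119b, Hist1h2bl and Hist1h2bf made up the rest, at -4.42 to -3.42.

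The Lamp1-depleted comparison overlapped in part with those of the other fractions, whose libraries may come from the same pooled lungs. Of 347 genes higher in depleted cells with at least 50 reads that were also tested in enriched cells, 163 (47.0%) had a log2 ratio of at least 1 there, against 5.10% of all 15229 genes compared. In unsorted cells 211 of 355 (59.4%) did, against 11.2% of 15317. Of the genes lower in depleted cells, 150 of 565 (26.5%) were at -1 or below in enriched and 236 of 568 (41.5%) in unsorted cells, against 4.48% and 8.43% of all. Of the same genes 153 and 106 were above 0 in enriched and unsorted cells, and of the higher genes 49 and 39 were below 0. Across genes the rank correlation with the depleted ratio was 0.37 for enriched and 0.42 for unsorted cells. Genes are not independent replicates, and no test was made. The rank correlation of the ratio with GC content was 0.46 in depleted cells, 0.11 in enriched and 0.12 in unsorted cells, so the trend with GC content was steeper in the fraction that holds the library with 38.4% Gm26917.

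**Figure D5:**
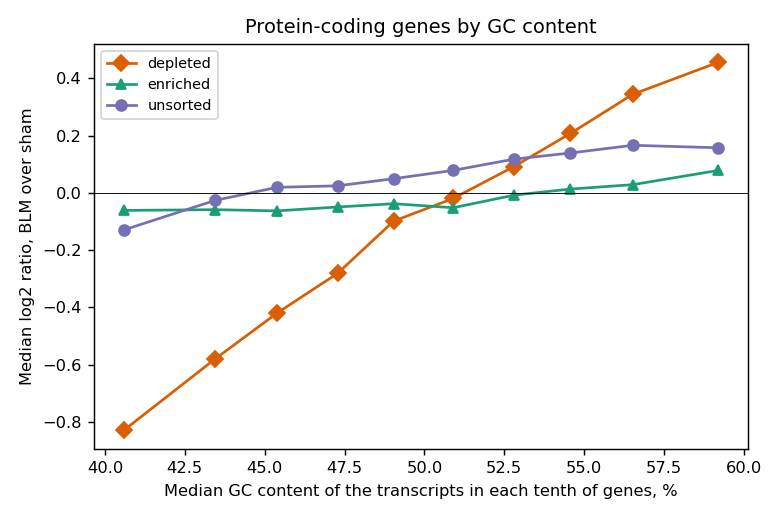
Median log2 ratio of BLM over sham (upward) in 10 bins of protein-coding genes by GC content of their transcripts (across, in %), for the 3 fractions. In Lamp1-depleted cells the median climbs from -0.83 to 0.46, while the enriched and unsorted lines stay closer to 0.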

How the data were processed

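The authors deposited unnormalized read counts, by gene, of 6 mouse lung libraries, 1 per condition. Per the labels' processing notes, Trimmomatic 0.36, STAR 2.5.2b, featureCounts of Subread 1.5.2 and DESeq2 were used with GRCm38. Annotation release, strand setting and the treatment of multiply mapped reads are not given in the sources used here. Unstranded counting would merge overlapping and antisense genes, and multiply mapped reads affect repeated genes.

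Gene names, types, exon lengths and transcript GC content came from GENCODE M21 (49056 of 49315 genes found). Gm26917 and Gm42418 were removed, and library sizes were scaled with TMM factors over all 6 libraries (edgeR 4.0.16, R 4.3.3), 0.971 for the BLM and 1.04 for the sham Lamp1-depleted library. Log2 ratios used a prior count of 0.5 scaled to library size (Python 3.11.15, numpy 2.4.6, scipy 1.17.1, pandas 2.3.3). Clopper-Pearson intervals (95%) cover counting error only. For a count of 0, the floor is 3 reads. With 1 library a side no test was run and no replicate could be left out. Adjusted ratios subtract the median of protein-coding genes (at least 50 reads) in the same of 10 GC and 5 length bins and add back their overall median; this was chosen after seeing the data. The programs were tested on simulated data.

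The 52 hand-written gene lists and the comparison were chosen with earlier results of these data known, and 8 further groups after the values were seen. Within a list, genes named were the 4 highest and 4 lowest with at least 50 reads and the first 4 written. Over all genes they were the 15 protein-coding genes with the largest ratio each way at 100 reads or more, Lamp1, Gm26917 and Gm42418. Others are marked as named after their values were seen, and 1 gene is not reported here. Alternatives were other scalings (DESeq2 1.42.0), read minimums, prior counts, thinning, gene types and thresholds.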

Additional observations from a re-analysis of the deposited data

Results flagged for a closer look

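For 4 lists the median log2 ratio of BLM over sham had opposite signs in Lamp1-depleted cells and in another fraction, each by at least 0.5. With 1 library in each group, the difference was not tested. Nonclassical monocyte genes had a median of -0.83 in depleted and 0.58 in unsorted cells (-0.80 and 0.41 after adjustment for GC content and length). Airway epithelium genes had a median of 1.12 in depleted and -0.88 in enriched cells (1.09 and -0.98 adjusted). MHC class II genes had a median of -0.78 in depleted cells, against 0.65 in enriched and 1.30 in unsorted cells (-0.62, 0.57 and 1.20 adjusted). Pan-leukocyte genes had a median of -0.89 in depleted and 0.90 in unsorted cells (-0.63 and 0.997 adjusted). Medians of these lists rest on 12 to 15 genes, and the fractions may come from the same pooled lungs.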

How the results depend on the processing

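No paired analysis was possible because each condition has 1 library, and for the same reason no replicate could be left out. The counts of genes past 4-fold, 1172 higher and 1546 lower, moved with the threshold, the read minimum and the gene type. They were 2999 and 4397 at a log2 ratio of 1 and 537 and 791 at 3. With at least 1 read they were 4646 and 3065, and with at least 50 reads 357 and 627. Protein-coding genes alone gave 752 and 443. With both libraries thinned to the same total, 1007 genes were lower. The other alternatives kept both counts within 1.5 times: higher genes numbered 1024 (prior count of 2) to 1263 (DESeq2 size factors). The split of higher against lower also turned, since with 1 read, thinned counts or protein-coding genes more genes were higher than lower. Every log2 ratio shifted by 0.11 with DESeq2 size factors and by -0.09 with total counts. Under the alternatives run, 0 named genes past 4-fold changed sign, and so did 0 list medians at least 0.5 from 0 and from the median of all genes. For the named genes this was close to fixed in advance. Scalings shifted ratios by at most 0.11 in size, and the adjustment for GC content and length by less than the 4-fold limit. Over all alternatives, 58 of 595 list medians and 584 of 4732 values of named genes moved by more than the counting error of the genes. These totals pool unlike settings. A minimum of 1 read or a prior count of 2 left all 477 named values the same. The adjustment for GC content and length moved 280 of the 477. With the adjustment for GC content and length 7 list medians within 0.5 of 0 crossed it: CD8 T cells (0.07), glycolysis (-0.08), MHC class I (-0.17), innate lymphoid cells (0.09), gamma delta and type 17 T cells (0.18), B cell activation (0.09) and nuclear retained RNAs (0.23), and 0 NK cell genes stayed past 4-fold. The cause was not tested. Depth limits genes with few reads: 430 of the higher genes had at most 3 reads in sham, and 990 of the lower genes at most 3 in BLM.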

Other observations

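Further groups of genes, formed by annotation after the values were seen, were mostly below 0 in BLM Lamp1-depleted cells. The 355 zinc finger Zfp genes had a median log2 ratio of -0.56, with 260 below 0 and 27 lower at 4-fold (7.61%). After adjustment the median was -0.34 with 9 lower. Of all genes 7.41% were lower before adjustment, and of protein-coding genes 3.03%. The ratio of the Zfp genes had a rank correlation with GC content of 0.61. The 253 snoRNA genes had a median of -0.78 and the 238 snRNA genes one of -1.06, although the summed level of each group was higher in BLM (2656 against 1063 CPM and 687 against 402 CPM). T cell receptor V segments had a median of -1.11 over the 75 of 144 segments tested, with the same limit. The 45 Trav segments summed to 364 reads in BLM and 1083 in sham, a log2 ratio of summed levels of -0.42. The 21 Trbv segments summed to 496 and 3129 reads (-1.50). The nuclear RNAs Malat1 and Neat1 were at 35169 and 15495 CPM (1.18) and at 1322 and 325 CPM (2.02).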
